A study of Mus musculus with 16 samples.

Results

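The genes examined encode 10 structural proteins of the brush border, the layer of microvilli on the luminal face of intestinal epithelial cells. They were chosen by name, for their role in the brush border, when earlier results of these data were known, so their counts are a description and not independent of the data. Vil1, Espn and Pls1 bundle the actin core of the microvillus, Ezr and Myo1a link that core to the membrane, and Cdhr2, Cdhr5, Ush1c, Anks4b and Myo7b form the adhesion complex that joins the tips of neighbouring microvilli. All 10 were found among the 45513 genes of the count tables, and all 10 passed the filter on low counts that left 15841 genes for testing.

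A microvillus is a finger of membrane around a bundle of parallel actin filaments, which is anchored below in the terminal web, a mesh of myosin, spectrin and crosslinkers. As absorptive cells mature, protocadherins at the tips of their microvilli draw the protrusions together into an even, tightly packed array. Goblet cells, the mucus-secreting cells of the colon, carry sparser microvilli around the opening through which mucus leaves.

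RNA was sequenced from EpCAM+ tdTom+ and EpCAM+ tdTom- cells sorted live from mouse colon. The 8 mice, homozygous for Atoh1(WT)CreERT2 and heterozygous for Rosa26tdTom, gave both populations each, and therefore 8 libraries per population. The mice were adults of both sexes, aged 8 to 16 weeks, on a C57BL/6 background, and all of them were given tamoxifen at 1 mg a day for 3 days in a row, so no untreated or Cre-free group is part of the comparison. The inducible Cre recombinase was expressed from the Atoh1 locus, the gene of a transcription factor of secretory cells, so that tdTomato marks cells that had Atoh1 active during induction and the descendants of such cells. The tdTom- cells are all other EpCAM+ epithelial cells, a mixture and not a pure absorptive fraction.

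The total of counts assigned to genes ran from 16482530 to 24218367 in the tdTom+ libraries and from 18318172 to 45791503 in the tdTom- libraries. Atoh1 stood at 102.5 to 166 CPM (counts per 1000000, scaled by library size) in the tdTom+ libraries and at 3.18 to 8.89 CPM in the tdTom- libraries. All 7 goblet cell markers examined were higher and all 6 absorptive markers were lower in tdTom+ cells, and so were all 5 enteroendocrine markers, all 3 stem cell markers, 4 of 7 tuft cell markers, 1 of 3 proliferation markers and 1 of 4 each of the immune and stromal markers. Without a term for each mouse, as here, 25.5% of all genes tested were called lower and 25.5% higher. Of the markers, 1 tuft, 2 immune and 2 stromal ones were too low to test. The counts of proliferation, immune and stromal markers are too small to be read against that share. With a term for each mouse, 5 of 7 tuft, 3 of 3 proliferation and 2 of 4 immune markers were lower. In that fit 4574 of 15841 genes tested were lower. The largest library, tdTom- of mouse 4, had the lowest summed absorptive markers of the 8 tdTom- libraries, 5646 CPM in a range up to 11150 CPM, and the lowest goblet and enteroendocrine sums.

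All 10 brush border genes were lower in tdTom+ than in tdTom- cells, in 8 of 8 mice each, and all remained well detected there. The levels that remained in tdTom+ cells ran from 25.5% of the tdTom- level for Cdhr2 to 71.2% for Myo1a, and the median log2 fold change of the 10 genes was -0.80, against 0.00 over all genes tested. In the quasi-likelihood test of edgeR, adjusted over all genes by Benjamini-Hochberg, 10 of 10 passed an adjusted p of 0.01 as lower, where 25.5% of all genes tested did. For all 10 every tdTom+ library lay below every tdTom- library, which held for 15.3% of all genes tested. No brush border gene was higher in tdTom+ cells, by edgeR (0 at an unadjusted p under 0.05) or by DESeq2 (0), where 25.5% of all genes tested passed as higher in edgeR and 15.2% had every tdTom+ library above every tdTom- library. In sorted bulk RNA, fewer cells of a type and less RNA per cell cannot be told apart.

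**Figure D1:**
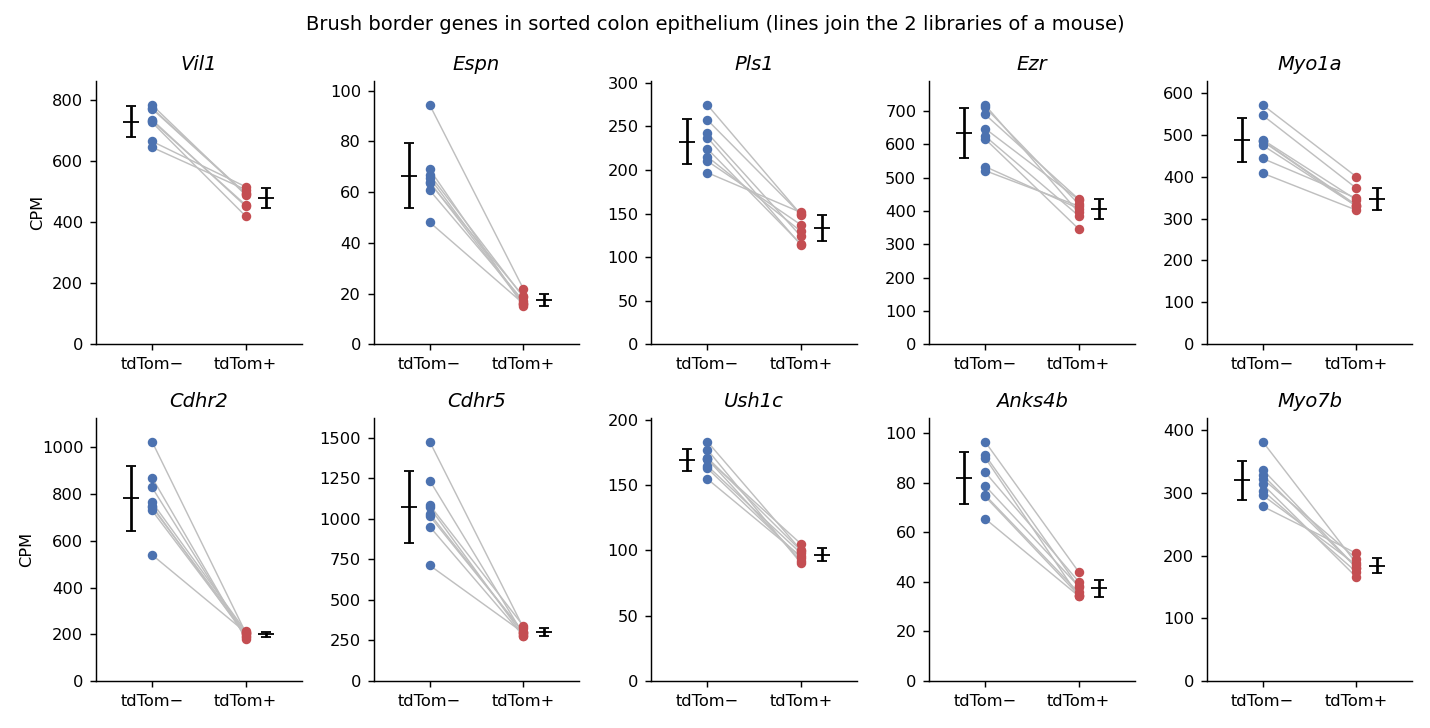
Level of each of the 10 brush border genes in CPM (vertical axes from 0, a scale for each gene) in the 8 tdTom- and 8 tdTom+ libraries. Grey lines join the libraries of a mouse and black bars give the mean ± SD. Every line slopes downward and no tdTom+ point reaches a tdTom- point of its gene, with the narrowest gap for Myo1a (400.1 against 408 CPM).

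The actin bundlers did not move by equal amounts. Vil1 (chr1:74409376-74435559, plus strand, GRCm38) encodes villin, which bundles actin filaments and severs them when calcium is high. It stood at 646 to 785 CPM in the tdTom- libraries (median 734) and at 420.2 to 517 CPM in the tdTom+ libraries (median 491). Villin transcripts had fallen to 65.6% of the tdTom- level (log2 fold change -0.61 ± 0.06 SE, n = 8 libraries per population, edgeR adjusted p = 3.8e-08). Espn (chr4:152120331-152152371, minus strand) encodes espin, a bundler that makes microvilli and the stereocilia of the inner ear longer. It stood at 48.1 to 94.4 CPM in tdTom- libraries (median 64.8) and at 15.2 to 21.9 CPM in tdTom+ libraries (median 16.6). Espin transcripts were thus 3.81-fold lower (log2 fold change -1.93 ± 0.11, edgeR adjusted p = 2.64e-12), the largest change of the bundlers. Pls1 (chr9:95752642-95845311, minus strand) encodes plastin 1, or fimbrin, the bundler that also ties the core to the terminal web. Its level was 197 to 275 CPM in tdTom- libraries (median 231) and 114 to 151 CPM in tdTom+ libraries (median 133). The fall, to 57.5% of the tdTom- level, lay between those of villin and espin (log2 fold change -0.80 ± 0.08, edgeR adjusted p = 2.09e-08).

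Of the membrane linkers, Myo1a kept the most of its level of all 10 genes, and Ezr kept about as much as Vil1. Ezr (chr17:6738041-6782784, minus strand) encodes ezrin, which binds actin at its tail and membrane proteins at its head once it is phosphorylated. Its level was 521 to 718 CPM in tdTom- libraries (median 636) and 346 to 435 CPM in tdTom+ libraries (median 411), a fall to 64.0% (log2 fold change -0.64 ± 0.08, edgeR adjusted p = 2.87e-07). Myo1a (chr10:127705170-127720887, plus strand) encodes brush border myosin I, the motor that bridges the actin core and the plasma membrane along the length of the microvillus. It stood at 408 to 571 CPM in tdTom- libraries (median 485) and at 320.4 to 400.1 CPM in tdTom+ libraries (median 339). The change was to 71.2% of the tdTom- level (log2 fold change -0.49 ± 0.07, edgeR adjusted p = 4.58e-06), and it was seen in 8 of 8 mice.

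Within the intermicrovillar adhesion complex, both adhesion molecules fell by more than the scaffolds and the motor. This was noticed after the values were seen, and Espn, outside the complex, fell by a like amount (log2 fold change -1.93). A link between the role of a gene and its change was not tested. Cdhr2 (chr13:54701461-54736662, plus strand) encodes the protocadherin PCDH24, which reaches across from the tip of a microvillus to its neighbour. It stood at 539.9 to 1025 CPM in tdTom- libraries (median 758) and at 181 to 213 CPM in tdTom+ libraries (median 203). The level was 3.92-fold lower in tdTom+ cells, the largest change of the 10 genes (log2 fold change -1.97 ± 0.10, edgeR adjusted p = 2.92e-13). Cdhr5 (chr7:141269085-141276786, minus strand) encodes its binding partner on the facing microvillus, the mucin-like protocadherin MLPCDH. It stood at 712 to 1475 CPM in tdTom- libraries (median 1050.1) and at 277 to 339.6 CPM in tdTom+ libraries (median 298). Cdhr5 transcripts were 3.56-fold lower (log2 fold change -1.83 ± 0.11, edgeR adjusted p = 6.63e-12).

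The 250 bases before the RefSeq start sites are shown for the cadherin pair and espin, the genes with the largest changes, and for Anks4b, with Vil1 beside them as a gene that changed less (GRCm38.p6, each 5′ to 3′ on the strand of its gene). Capitals mark matches to the motifs searched on both strands.
Vil1 chr1:74409134-74409383 (plus strand): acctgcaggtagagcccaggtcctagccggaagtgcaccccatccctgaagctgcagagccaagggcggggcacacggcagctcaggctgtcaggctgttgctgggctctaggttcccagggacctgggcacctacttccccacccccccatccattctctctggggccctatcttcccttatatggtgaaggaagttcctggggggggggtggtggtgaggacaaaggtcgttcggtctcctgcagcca
Cdhr2 chr13:54701213-54701462 (plus strand): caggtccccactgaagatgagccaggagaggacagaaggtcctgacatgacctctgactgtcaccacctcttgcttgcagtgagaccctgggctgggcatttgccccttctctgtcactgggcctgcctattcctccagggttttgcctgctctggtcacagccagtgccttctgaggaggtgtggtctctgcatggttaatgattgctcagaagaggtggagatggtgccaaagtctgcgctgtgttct
Cdhr5 chr7:141276787-141277036 (minus strand): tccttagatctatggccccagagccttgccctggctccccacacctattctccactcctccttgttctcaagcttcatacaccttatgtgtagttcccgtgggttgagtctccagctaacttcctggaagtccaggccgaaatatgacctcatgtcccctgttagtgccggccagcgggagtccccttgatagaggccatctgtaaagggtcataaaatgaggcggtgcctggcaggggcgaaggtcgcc
Anks4b chr7:120173608-120173857 (plus strand): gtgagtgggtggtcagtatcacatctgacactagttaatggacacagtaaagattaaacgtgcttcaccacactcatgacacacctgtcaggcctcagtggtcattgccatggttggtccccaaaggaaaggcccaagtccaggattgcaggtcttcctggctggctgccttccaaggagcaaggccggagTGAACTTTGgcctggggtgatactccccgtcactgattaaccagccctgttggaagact
Espn chr4:152152390-152152639 (minus strand): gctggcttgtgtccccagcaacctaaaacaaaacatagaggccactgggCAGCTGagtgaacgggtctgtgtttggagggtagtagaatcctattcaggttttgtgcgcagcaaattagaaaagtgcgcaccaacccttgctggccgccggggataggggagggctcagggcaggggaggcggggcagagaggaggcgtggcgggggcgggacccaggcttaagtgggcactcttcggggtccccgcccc
RefSeq gave 11 promoters of 300 bases for the 9 genes searched, which leave out Myo7b. The HNF4 motif, searched as CAAAGTCCA or CAAAGTTCA, was present in 0.861% of 32851 mouse promoters and in 1 of the 11, that of Anks4b, where it starts at -59 on the minus strand relative to the start site. The E-box CAGCTG, the motif searched for ATOH1, was present in 16.3% of all promoters and in 2 of the 11. Both belong to espin, which has 3 listed promoters. In the printed espin promoter the E-box starts at -201, and in another, chr4:152128876-152129175, it was found at -126 and -78. That last promoter also held the only match among the 11 to the CDX motif TTTATNG, at -197, which 10.9% of all promoters carry. No match was found in the promoters of Vil1, Cdhr2 and Cdhr5, which says only that these letters are not in these windows.

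The cytoplasmic members of the complex changed less. Ush1c (chr7:46195350-46238503, minus strand) encodes harmonin, the PDZ scaffold that the tails of both cadherins bind. It stood at 155 to 183 CPM in tdTom- libraries (median 170.1) and at 90.3 to 105 CPM in tdTom+ libraries (median 96.6), a fall to 57.2% (log2 fold change -0.81 ± 0.05, edgeR adjusted p = 7.23e-12). Anks4b (chr7:120173858-120183716, plus strand) encodes the ankyrin repeat protein that joins harmonin to the motor. Its level was 65.5 to 96.6 CPM in tdTom- libraries (median 81.5) and 34.2 to 44.0 CPM in tdTom+ libraries (median 36.8). With 45.7% of the tdTom- level left (log2 fold change -1.13 ± 0.08, edgeR adjusted p = 6.26e-11), it lay between the cadherins and harmonin.

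Myo7b (chromosome 18, minus strand) encodes the myosin that carries the complex toward the tips. It stood at 279 to 382 CPM in tdTom- libraries (median 318) and at 166 to 204 CPM in tdTom+ libraries (median 183). The motor fell to 57.5% of the tdTom- level (log2 fold change -0.80 ± 0.06, edgeR adjusted p = 8.67e-10).

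Ordered by mean change, the widest gap between neighbours among the 10 genes lay between Anks4b and Cdhr5. Myo1a, Vil1, Ezr, Myo7b, Pls1, Ush1c and Anks4b fell least, in that order, and Cdhr5, Espn and Cdhr2 fell most. The gap between Anks4b and Cdhr5 was 0.68 ± 0.17 in log2 units (SD of the within-mouse differences) and had the same sign in 8 of 8 mice. It was picked as the widest after the order was seen. Smaller gaps also held in 8 of 8 mice, with Ush1c above Anks4b by 0.32 ± 0.07 and Myo1a above Vil1 by 0.12 ± 0.08. Myo7b, Pls1 and Ush1c could not be ordered, since neighbours among them kept their order in 4 of 8 mice, nor could Vil1 and Ezr (5 of 8 mice). The same was true of the 3 genes that fell most, where Cdhr5 lay above Espn in 5 mice and Espn above Cdhr2 in 4.

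**Figure D2:**
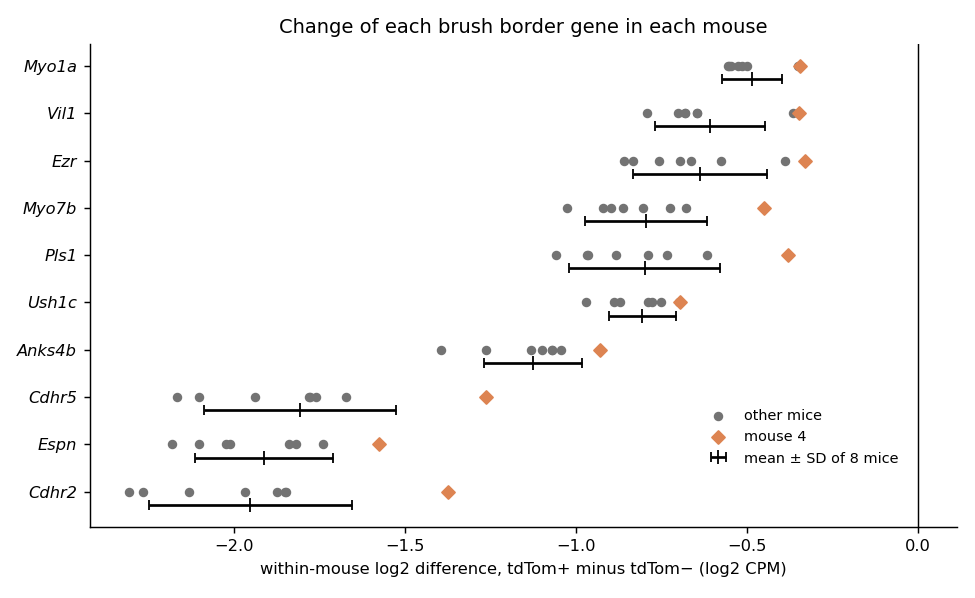
Within-mouse log2 difference (log2 CPM, tdTom+ minus tdTom-) of each brush border gene in each of 8 mice, ordered by the mean, with black bars for mean ± SD. Every point lies left of 0, Cdhr5, Espn and Cdhr2 have the lowest means, and mouse 4 (orange diamonds) has the smallest difference for all 10 genes.

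Per kilobase of exon, the order of levels changed between the populations. In tdTom- cells Cdhr5 led at 408 ± 83.6 CPM per kb (SD, n = 8), with Vil1 at 206 ± 14.3, Ezr at 192 ± 22.9, Cdhr2 at 189 ± 33.4 and Myo1a at 144 ± 15.3 CPM per kb. In tdTom+ cells Vil1 led at 135 ± 9.16 CPM per kb, with Ezr at 123 ± 8.94, Cdhr5 at 115 ± 8.53, Myo1a at 103 ± 7.89 and Cdhr2 at 48.3 ± 2.69 CPM per kb. The lead of Cdhr5 over Vil1 in tdTom- cells held in 8 of 8 mice, whereas Ezr and Cdhr2 there differed by less than their spread (5 of 8 mice). In tdTom+ cells Vil1, Ezr, Cdhr5 and Myo1a lay close together, each above the next in 6 or 7 of 8 mice, and Cdhr2 lay below Myo1a in 8 of 8. The means of the 5 less abundant genes kept the same order in both populations, Pls1, Myo7b, Ush1c, Anks4b and Espn. They ran from 59.7 ± 6.62 to 11.1 ± 2.16 CPM per kb in tdTom- cells and from 34.3 ± 3.94 to 2.92 ± 0.38 CPM per kb in tdTom+ cells. In tdTom- cells Myo7b lay above Ush1c in 7 of 8 mice (log2 difference 0.13 ± 0.14 SD) and Ush1c above Anks4b in 6 of 8 (0.13 ± 0.19). The level of Espn per kilobase rests on the 5979 bases of exon that the files give it over all its start sites.

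As a share of the summed level of the 10 genes per kilobase, the cadherins gave way to villin and the linkers. Cdhr5 made up 30.1% ± 3.29 of the sum in tdTom- cells and 18.1% ± 1.40 in tdTom+ cells, and Cdhr2 14.0% ± 1.05 and 7.64% ± 0.37. The share of Vil1 was 15.4% ± 1.30 and 21.3% ± 0.75, that of Ezr 14.4% ± 1.50 and 19.5% ± 1.26, and that of Myo1a 10.8% ± 1.19 and 16.2% ± 1.19. For each of these 5 genes the ranges of the 8 tdTom- and the 8 tdTom+ shares did not overlap. Summed in CPM, the 10 genes amounted to 3622 to 5315 CPM in tdTom- libraries (median 4606) and 2039 to 2286 CPM in tdTom+ libraries (median 2228).

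The brush border genes kept more of their level in tdTom+ cells than the absorptive markers. The 6 absorptive markers, which include the water channel Aqp8, the anion exchanger Slc26a3 and the carbonic anhydrases Car1 and Car4, stood at 2.77% to 10.2% of their tdTom- level, whereas the brush border genes stood at 25.5% to 71.2%. The sums of the absorptive markers were 5646 to 11150 CPM in tdTom- libraries and 323 to 633 CPM in tdTom+ libraries, and none of the markers was at 0 in any library. Markers of enteroendocrine cells, 5 of 5, and of tuft cells, 4 of 7, were lower in tdTom+ cells as well, where 25.5% of all genes tested were. The part of these cell types in the brush border values was not tested.

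Mouse 4 had the smallest differences, for some genes by a narrow margin. Its tdTom- library was the lowest of 8 for 8 of the 10 genes, and its within-mouse difference was the smallest for all 10. For Vil1 (-0.349 against -0.365 in mouse 1) and Myo1a (-0.347 against -0.350 in mouse 1) this was a near tie. The same held for Ush1c (-0.696 against -0.698 in mouse 6). The median within-mouse log2 difference of the 10 genes was -0.57 in mouse 4 and between -0.78 and -1.04 in the other mice. The same tdTom- library was the lowest of 8 for summed absorptive markers (5646 CPM) and the highest for summed proliferation markers (713 CPM). Its total of 45791503 counts compares with 20668605 for the next largest tdTom- library. The tdTom+ library of mouse 4 was the highest of 8 for 3 of the 10 genes and the lowest for 0. The mouse with the largest median difference, mouse 2, had the highest absorptive sum (11150 CPM) in its tdTom- library. A link over the 8 mice between the absorptive sum and the size of the difference was not tested. The mouse numbers in the labels start with the same digit in mice 1 to 3 and with another in mice 5 to 8, and the labels name no batch. In mice 1 to 3 alone the log2 fold changes ran from -2.14 (Cdhr2) to -0.47 (Myo1a), in mice 5 to 8 alone from -1.99 (Espn) to -0.54 (Myo1a), and all 10 genes passed the test as lower in each.

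Other genes of the brush border were called in both directions, more of them lower than higher. Of 26 further genes of the microvillus and terminal web, 25 could be tested. In edgeR 17 of them were lower in tdTom+ cells, 4 were higher and 4 did not pass, where 25.5% of all genes tested passed in each direction. The median log2 fold change was -0.44 against 0.00 over all genes, and Pdzk1 was too low to test. All 5 genes of the actin core and rootlets were lower, from Misp, a rootlet bundler (log2 fold change -1.50 ± 0.08, edgeR adjusted p = 1.68e-12), and Actb, cytoplasmic actin (-0.66 ± 0.09, edgeR adjusted p = 1.39e-06), to Actg1 (-0.47 ± 0.07), Tpm1 (-0.44 ± 0.05) and the actin nucleator Cobl (-0.37 ± 0.08). Both apical transport myosins were lower, Myo5b (-0.79 ± 0.07, edgeR adjusted p = 3.39e-09) and Myo6 (-0.39 ± 0.05, edgeR adjusted p = 7.73e-07). Actin itself therefore fell by about as much as Vil1, Ezr and Myo1a, though the difference between them was not tested.

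In the tip complex, which regulates actin growth at the end of the microvillus, 4 of 5 genes were lower and 1 was higher. These counts are too small to be read against the 25.5% of all genes tested that passed in each direction. Eps8l2 (log2 fold change -1.51 ± 0.09, edgeR adjusted p = 3.22e-12), Eps8 (-0.92 ± 0.09, edgeR adjusted p = 7.43e-09), Eps8l3 (-0.44 ± 0.07) and Baiap2l1, the gene of the membrane-curving protein IRTKS (-0.18 ± 0.05, edgeR adjusted p = 0.00747), made up the former. The call of Baiap2l1 was lost in 6 of 8 fits that left out a mouse. Eps8l1 was the exception (0.69 ± 0.13, edgeR adjusted p = 9.83e-05), and was scarce, with means of 4.47 ± 1.08 CPM (tdTom-) and 7.17 ± 0.91 CPM (tdTom+).

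Calml4, the light chain that binds Myo7b in the adhesion complex, did not follow its partners. It stood at 82.9 to 134 CPM in tdTom- libraries and at 69.5 to 123 CPM in tdTom+ libraries, ranges that overlap (log2 fold change -0.11 ± 0.11, edgeR adjusted p = 0.431). Its within-mouse log2 difference averaged -0.12 ± 0.16 (SD, n = 8), against -1.30 for the mean of the 5 adhesion complex genes. The difference between the latter and Calml4 was 1.18 ± 0.29 on the log2 scale, from 0.69 to 1.64, with the same sign in 8 of 8 mice. Calml4 was singled out after its value was seen.

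Scaffolds and kinases that act on ezrin moved in both directions. Slc9a3r1 (NHERF1), the PDZ scaffold that active ezrin binds in microvilli, fell from 258 ± 34.4 to 77.2 ± 7.12 CPM (log2 fold change -1.74 ± 0.08, edgeR adjusted p = 2.44e-13). Its relative Slc9a3r2 (NHERF2) rose from 2.61 ± 0.57 to 38.9 ± 4.98 CPM (3.91 ± 0.12, edgeR adjusted p = 5.03e-16), the largest rise of the 26 genes. Slc9a3r1 was thus 99.1% ± 0.22 of the summed level of this pair per kilobase in tdTom- cells and 70.0% ± 1.87 in tdTom+ cells. Pdzd3 (NHERF4) fell (-2.41 ± 0.11, edgeR adjusted p = 1.22e-13). Among the kinases that phosphorylate ezrin, Stk10 (LOK) fell from 36.0 ± 8.05 to 2.87 ± 0.47 CPM (-3.64 ± 0.15, edgeR adjusted p = 2.01e-14), the largest fall of the 26 genes. Stk26 (MST4) rose from 7.01 ± 1.15 to 18.9 ± 2.13 CPM (1.43 ± 0.10, edgeR adjusted p = 9.3e-11), and Slk stood at 161 ± 11.8 and 161 ± 13.4 CPM (0.00 ± 0.06, edgeR adjusted p = 0.991).

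In the terminal web 3 of 6 genes were lower, 1 was higher and 2 did not pass, counts too small to be read against the 25.5% of all genes that passed in each direction. Myh14, a nonmuscle myosin II heavy chain of epithelia, fell from 807 ± 83.7 to 249 ± 23.4 CPM (log2 fold change -1.70 ± 0.08, edgeR adjusted p = 1.09e-13), while Myh9 stood at 624 ± 37.4 and 575 ± 51.0 CPM (-0.12 ± 0.06, edgeR adjusted p = 0.123) and Myh10 at 3.03 ± 0.67 and 3.03 ± 0.52 CPM (0.01 ± 0.14). The share of Myh9 in the summed level of these heavy chains per kilobase was 30.4% in tdTom- and 56.3% in tdTom+ cells. The actin crosslinkers split: Actn4 fell (-0.80 ± 0.07, edgeR adjusted p = 2.94e-09) and Actn1 rose (1.08 ± 0.08, edgeR adjusted p = 1.37e-10), so that Actn1 made up 20.3% of the pair in tdTom- and 48.4% in tdTom+ cells. Sptan1, the spectrin of the web, fell (-0.48 ± 0.05, edgeR adjusted p = 1.51e-07).

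**Figure D3:**
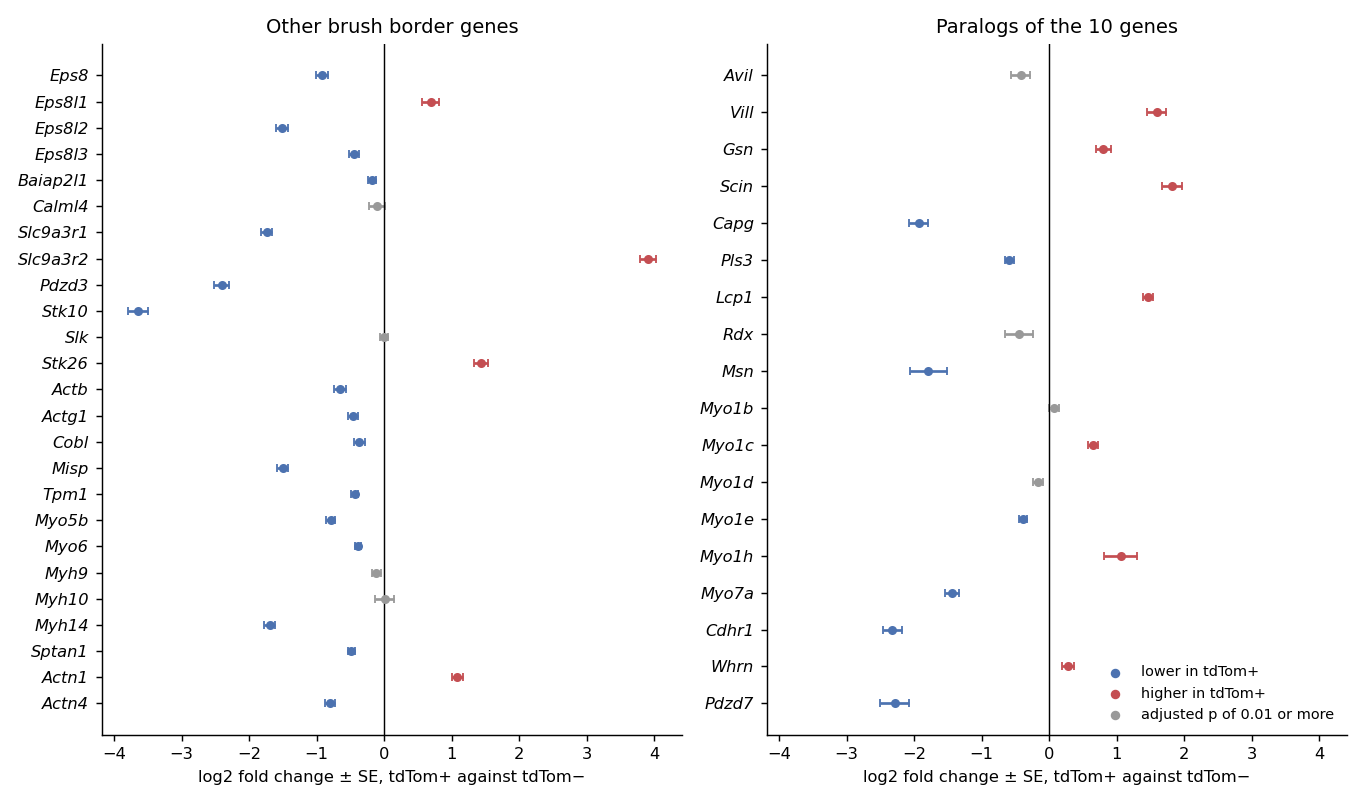
Log2 fold change (tdTom+ against tdTom-) ± SE from edgeR for 25 other brush border genes (left) and 18 paralogs of the 10 genes (right) that passed the filter on low counts. Blue points are lower in tdTom+ cells, red points higher and grey points did not pass an adjusted p of 0.01; 17 of 25 and 7 of 18 are blue, 4 and 7 are red.

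Paralogs of the 10 genes were called in both directions. Of 26 paralogs, 18 could be tested. In edgeR 7 were lower, 7 were higher and 4 did not pass, where 25.5% of all genes tested passed in each direction, and the median log2 fold change was -0.28 against 0.00 over all genes. In the villin family, whose members sever or cap actin filaments, Scin (adseverin) rose from 132 ± 24.2 to 468 ± 119 CPM (log2 fold change 1.82 ± 0.14, edgeR adjusted p = 6.93e-10), Vill from 6.44 ± 1.47 to 19.4 ± 3.30 CPM (1.59 ± 0.14, edgeR adjusted p = 3.08e-09) and Gsn (gelsolin) from 171 ± 37.2 to 297 ± 25.2 CPM (0.80 ± 0.11, edgeR adjusted p = 2.81e-06). Capg fell (-1.93 ± 0.14, edgeR adjusted p = 1.49e-10). Vil1 accordingly made up 62.5% ± 3.03 of the family per kilobase in tdTom- cells and 33.8% ± 4.48 in tdTom+ cells, where Scin, at 38.2% ± 5.59, was the largest on average. The ranges of the Vil1 share did not overlap (59.1% to 67.7% and 26.4% to 39.7%).

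The other families of bundlers and linkers changed less in make-up. Among the fimbrins Lcp1 rose (log2 fold change 1.47 ± 0.08, edgeR adjusted p = 7.62e-13) and Pls3 fell (-0.59 ± 0.06, edgeR adjusted p = 1.06e-07), and Pls1 remained the main form at 89.2% ± 1.59 in tdTom- and 83.7% ± 1.42 in tdTom+ cells. Lcp1 is best known from leukocytes, and the part of leukocytes in its value was not tested. Of the 4 immune markers, Ptprc was lower in tdTom+ libraries (2.17 ± 0.64 against 6.23 ± 1.91 CPM), 1 did not pass and 2 were too low to test. Ezr made up 98.5% ± 0.33 and 98.3% ± 0.61 of the ezrin, radixin and moesin family. Its relative Msn fell (-1.79 ± 0.28, edgeR adjusted p = 1.01e-05) at 2.03 ± 0.77 CPM or less, in the same direction as Ptprc, and the part of leukocytes in that value was not tested. Rdx stood at 13.2 ± 4.15 and 9.66 ± 3.53 CPM (-0.44 ± 0.21, edgeR adjusted p = 0.0708), but passed as lower once the fit had a term for each mouse (edgeR adjusted p = 7.75e-05). Avil, a villin relative that tuft cells express, did the same (-0.42 ± 0.14, edgeR adjusted p = 0.0122, and 0.00312 with that term).

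Paralogs of the motors and of the adhesion complex also moved in both directions. Among class I myosins, which link membrane to actin, Myo1c rose (log2 fold change 0.65 ± 0.07, edgeR adjusted p = 1.93e-07), as did the scarce Myo1h (1.06 ± 0.24, edgeR adjusted p = 7.71e-04), and Myo1e fell (-0.39 ± 0.06, edgeR adjusted p = 1.79e-05). Myo1a made up 54.8% to 60.7% of the class in tdTom- libraries and 45.8% to 54.3% in tdTom+ libraries, ranges that did not overlap. Myo7a, the class VII myosin of hair cells, fell (-1.44 ± 0.10, edgeR adjusted p = 1.2e-10), and Myo7b made up 95.5% ± 0.56 and 97.1% ± 0.32 of the class. The photoreceptor cadherin Cdhr1 fell (-2.32 ± 0.14, edgeR adjusted p = 1.1e-11), and so did Pdzd7, a harmonin-like scaffold (-2.29 ± 0.21, edgeR adjusted p = 6.76e-09), whereas its relative Whrn (whirlin) rose (0.28 ± 0.09, edgeR adjusted p = 0.00839), a call that was lost in 6 of 8 fits that left out a mouse. Cdhr3, Cdhr4, Cdh23, Pcdh15, Ush1g, Espnl, Myo1f and Myo1g were too low to test.

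**Figure D4:**
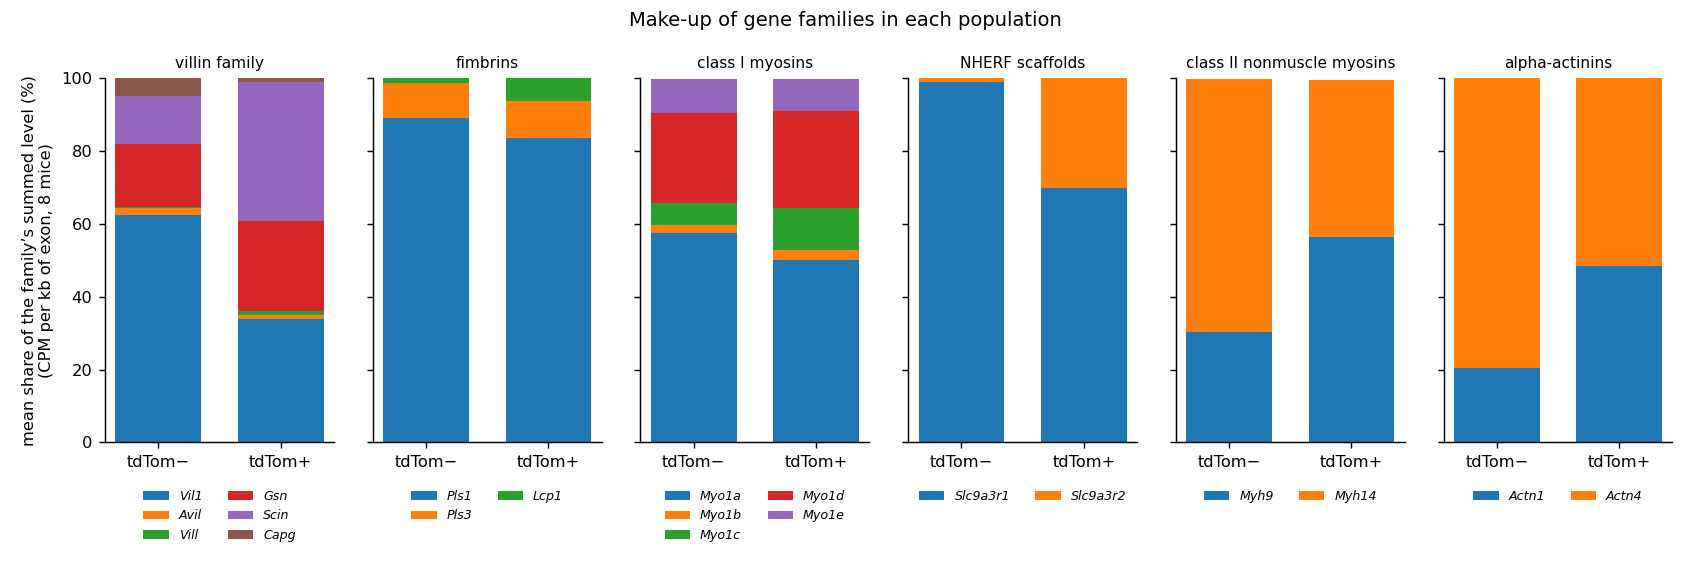
Mean share of each gene (percent, 8 mice) in the summed level of its family, in CPM per kb of exon, in tdTom- and tdTom+ cells, with genes under 0.5% in both populations left out. Vil1 shrinks from 62.5% to 33.8% of the villin family as Scin grows, Slc9a3r2 reaches 30.0% of the NHERF pair, and Pls1 and Myo1a stay the largest of their families.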

How the data were processed

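RNA of sorted EpCAM+ tdTom+ and tdTom- colon cells from 8 mice was analysed. Per the labels and the study's methods, libraries were stranded and from mRNA, and the authors mapped the single-end reads on GRCm38 (TopHat2 2.1.1). They deposited raw counts per gene, 1 table per library, without normalization. The submitters' processing notes name Subread 1.5.2 and DESeq2 1.14.1, whereas the file headers name featureCounts 1.5.0-p1, run on exons, primary alignments and the reverse strand. Exons of Vil1, Ezr and Ush1c overlap genes on the opposite strand by up to 120 bases, which such counting separates.

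Symbols came from GENCODE M21 for 44585 of 45513 genes. The comparison over all genes used R 4.3.3 and edgeR 4.0.16, with filterByExpr, TMM, glmQLFit and glmQLFTest and without a mouse term, at a Benjamini-Hochberg adjusted p under 0.01, and the fit was tested on simulated counts. CPM values are TMM-scaled, within-mouse differences used log2 CPM with a prior count of 2, and levels per kilobase used the exon lengths in the files. The SE of an edgeR log2 fold change was derived from the test, as its absolute value divided by the square root of the quasi-likelihood F statistic. Replicates are separate mice. The sample titles pair the libraries by mouse; deviations from the group means correlated at 0.227 or more within mice and at most 0.171 between mice. No libraries agreed within sampling noise. A floor of 3 counts is 0.0655 to 0.182 CPM and covers counting error only.

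As alternatives, a mouse block was added, and DESeq2 1.42.0, RLE or no scaling factors, no filter, each mouse left out, mice 1 to 3 or 5 to 8 only, and an adjusted p of 0.05 were tried. Genes named were the 10 members, in each class of the other lists up to 3 genes past the threshold with the largest change plus all that rose, the rest of a class where few, and the 5 genes closest to the members' median pattern. The members and lists were chosen with earlier results of these data known. Protein sequences are not used here, nor is the promoter of Myo7b. Figures were drawn with matplotlib 3.10.9.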

Additional observations from a re-analysis of the deposited data

How the results depend on the processing

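All 10 brush border genes were lower and 0 higher under every alternative run. With the mouse as a replicate block the count stayed at 10, and the pairing changed the call of no other brush border gene or paralog but Avil and Rdx, so that 9 paralogs were lower in place of 7. Among the cell type markers it added Mki67, Top2a, Lyz2 and Avil to those lower. No gene called in these lists reversed direction under any alternative. With library totals in place of TMM the median of all genes moved to -0.05, the weakest member, Myo1a, stood at -0.54, and Avil became lower, as it did with DESeq2, while Whrn was no longer called. Baiap2l1 lost its call without the filter. It also lost it without mouse 2, 3, 5, 6, 7 or 8 (edgeR adjusted p of 0.00664 to 0.0369 over the 8 fits that leave out a mouse), as did Whrn (0.00135 to 0.0246), while Avil gained a call without mouse 4 or 6 (0.00299 to 0.0479). In mice 1 to 3 alone Baiap2l1, Eps8l1, Actg1 and Whrn were not called, and in mice 5 to 8 alone Myo1h was not. The 9 further brush border genes and paralogs too low to test averaged at most 0.736 CPM in either population. Of these, Myo1f and Myo1g passed as lower without the filter, and for the others no difference was detectable at this depth.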

Other observations

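The brush border genes that changed most between the populations also varied most among the tdTom- libraries. The coefficient of variation over the 8 tdTom- libraries was 20.5% for Cdhr5, 19.4% for Espn and 17.6% for Cdhr2, and between 5.17% (Ush1c) and 12.7% (Anks4b) for the other genes. Over the 8 tdTom+ libraries it was 7.45% for Cdhr5 and 5.56% for Cdhr2, near that of Vil1 (6.79%), while Espn was at 12.9% and Pls1 at 11.5%.

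Outside the lists, 4910 genes at least as abundant as the lowest brush border gene were compared with the median pattern of the 10 genes over the 8 within-mouse differences. The closest were Ptk2b, a focal adhesion kinase relative, with a root mean square distance of 0.0716 on the log2 scale and a log2 fold change of -0.83 ± 0.06 SE, Btg1 (0.0727 and -0.86 ± 0.09), Caskin2 (0.0785 and -0.81 ± 0.05), Lmo7 (0.0794 and -0.88 ± 0.06) and Ptp4a1 (0.0860 and -0.86 ± 0.10). They are close by selection from the 4910 genes, and the distance counts the size of the change as well as its course over the mice. The same distance was not computed for the brush border genes themselves, so no likeness particular to them is shown.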
